A study of Mus musculus with 12 samples.

Results

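The genes described here are 39 genes of DNA replication and S phase, the part of the cell cycle in which the genome is copied. They were chosen by gene symbol, from a list of replication proteins and regulators, with earlier results of these data known. All 39 were found among the 55421 genes of the count table. All 39 also passed the filter on low counts that kept 14460 genes. RNA was sequenced from OT-I cells, mouse CD8 T cells that all carry 1 transgenic receptor, specific for an ovalbumin peptide. All groups shared the same setting: OT-I cells were transferred into host mice, the hosts were infected with Listeria monocytogenes expressing ovalbumin (LM-OVA), and the transferred cells were sorted from the spleen. The 12 libraries form 6 groups of 2, namely Rroid2 KO and Rroid2 WT memory precursor effector cells (MPEC) on day 14 after infection, Rroid2 KO and Rroid2 WT short-lived effector cells (SLEC) on day 14, and Rroid2 KO and Rroid2 WT SLEC on day 7. The sources used here do not give the age of the mice, the sorting gates, the allele behind the KO label or the number of animals behind a library, and no gene of the table bears the name Rroid2, so the genotype labels were not checked against a count. The labels do not say that the 2 libraries of a group came from separate animals, so p-values measure only the spread between libraries, which may be technical.

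In a cell about to divide, ORC, Cdc6 and Cdt1 load the ring-shaped helicase Mcm2 to Mcm7 onto replication origins. Mcm10, Cdc45 and the GINS complex then turn the loaded ring into the active CMG helicase, and primase, the polymerases, the PCNA clamp and enzymes that make deoxynucleotides do the copying. Many of these genes are switched on together by E2F transcription factors when cyclin E and its kinase inactivate RB, and CD8 T cells responding to an infection are known to divide fast in the first week and to stop dividing as the response contracts.

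Promoter sequences are shown for 7 members that the results below turn on: Mcm3, Mcm5 and Mcm6 as helicase genes that stayed measurable on day 14, Rfc3 as a clamp loader gene with the same letters near its start, Cdc6 as the member with the largest fall in WT SLEC, and E2f2 and Rpa2 as the 2 members that differed between MPEC and SLEC. Each window runs from 250 bases before to 50 bases after the gene start given by RefSeq, in build GRCm38.p6, and is written 5′ to 3′ on the gene's strand. Capitals mark the letters TTTCCCGC, TTTCGCGC, TTTGCCGC or TTTGGCGC, which match the E2F motif, and the letters CCAAT, which match the NF-Y motif, each on either strand. Matches that overlap each other are both marked, as in Mcm5 and Mcm6, where a forward and a reverse E2F match share bases.
Mcm3 (chr1:20820263-20820562, minus strand): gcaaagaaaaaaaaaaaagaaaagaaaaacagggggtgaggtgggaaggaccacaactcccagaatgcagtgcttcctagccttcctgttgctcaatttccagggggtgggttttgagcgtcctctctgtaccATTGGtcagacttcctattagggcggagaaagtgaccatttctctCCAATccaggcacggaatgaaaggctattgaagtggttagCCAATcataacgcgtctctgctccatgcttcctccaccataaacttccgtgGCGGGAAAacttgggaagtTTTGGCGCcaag
Mcm5 (chr8:75109259-75109558, plus strand): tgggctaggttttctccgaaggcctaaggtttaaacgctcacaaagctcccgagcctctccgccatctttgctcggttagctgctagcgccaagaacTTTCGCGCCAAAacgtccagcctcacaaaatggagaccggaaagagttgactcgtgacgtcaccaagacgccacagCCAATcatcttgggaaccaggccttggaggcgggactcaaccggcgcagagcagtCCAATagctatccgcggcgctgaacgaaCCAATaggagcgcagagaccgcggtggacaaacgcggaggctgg
Mcm6 (chr1:128359656-128359955, minus strand): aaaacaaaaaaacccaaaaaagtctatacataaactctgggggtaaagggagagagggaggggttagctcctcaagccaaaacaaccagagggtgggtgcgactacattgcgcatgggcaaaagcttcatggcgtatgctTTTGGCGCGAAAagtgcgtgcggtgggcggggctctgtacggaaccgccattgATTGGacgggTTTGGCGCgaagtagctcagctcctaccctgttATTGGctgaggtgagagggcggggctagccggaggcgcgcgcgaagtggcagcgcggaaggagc
Rfc3 (chr5:151651159-151651458, minus strand): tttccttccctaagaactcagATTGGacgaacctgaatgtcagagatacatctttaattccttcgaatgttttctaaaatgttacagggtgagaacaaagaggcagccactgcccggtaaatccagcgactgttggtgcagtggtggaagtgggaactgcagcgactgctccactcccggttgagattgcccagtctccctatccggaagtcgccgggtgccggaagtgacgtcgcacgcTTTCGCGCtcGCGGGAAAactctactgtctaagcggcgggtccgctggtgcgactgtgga
Cdc6 (chr11:98907901-98908200, plus strand): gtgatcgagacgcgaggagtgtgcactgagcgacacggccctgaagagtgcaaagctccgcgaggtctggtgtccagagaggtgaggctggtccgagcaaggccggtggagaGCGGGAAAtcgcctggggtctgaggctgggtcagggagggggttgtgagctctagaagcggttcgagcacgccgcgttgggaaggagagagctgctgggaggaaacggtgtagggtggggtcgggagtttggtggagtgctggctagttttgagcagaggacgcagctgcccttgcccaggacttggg
E2f2 (chr4:136172024-136172323, plus strand): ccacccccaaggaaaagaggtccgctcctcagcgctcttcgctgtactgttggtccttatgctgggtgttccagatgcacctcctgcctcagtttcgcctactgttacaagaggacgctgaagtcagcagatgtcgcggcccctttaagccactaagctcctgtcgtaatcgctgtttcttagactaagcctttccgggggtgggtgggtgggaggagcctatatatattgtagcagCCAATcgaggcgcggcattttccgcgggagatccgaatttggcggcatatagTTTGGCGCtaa
Rpa2 (chr4:132768110-132768409, plus strand): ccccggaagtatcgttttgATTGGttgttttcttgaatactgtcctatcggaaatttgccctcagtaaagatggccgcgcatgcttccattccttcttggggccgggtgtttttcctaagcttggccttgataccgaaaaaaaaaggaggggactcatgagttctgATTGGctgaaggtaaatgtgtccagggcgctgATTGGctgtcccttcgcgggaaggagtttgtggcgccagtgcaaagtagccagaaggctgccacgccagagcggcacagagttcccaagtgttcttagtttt

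RefSeq's table held 36 windows of 31 of the 39 members. E2F letters stood in 12 of the 36 windows (33.3%), against 2.26% of all 32851 promoter windows of the table. CCAAT stood in 52.8% of the members' windows, against 37.4% of all windows, and both kinds of letters stood in 22.2%, against 0.962%. Over all windows, 5 E2F matches were overlapped by a CCAAT match. Mcm6 had 3 E2F matches in its window, Mcm3, Mcm5 and Rfc3 had 2, Cdc6 and E2f2 had 1, and the Rpa2 window had none but held CCAAT 3 times. A match is a match of letters and not a measured binding site.

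Library totals ran from 7603551 to 14026594 counts, and levels are given as CPM, counts per 1000000 with library sizes scaled by TMM factors. The T cell markers Cd3e, Cd8a and 6 others summed to 4273 to 6148 CPM. The 8 MPEC markers, among them Il7r, summed to 2483 to 3151 CPM in MPEC and 306.7 to 1109 CPM in SLEC, and the 7 SLEC markers, among them Klrg1, summed to 590.9 to 729.7 CPM in MPEC and 4224 to 7229 CPM in SLEC. The MPEC marker Lef1 had 301.4 and 319.9 CPM in KO MPEC, against 293.9 and 695.1 CPM in KO SLEC on day 14. Each other MPEC marker was higher in every MPEC library than in any SLEC library. On day 14 the MPEC markers summed to 971.2 and 1109 CPM in KO SLEC, against 619 and 575.5 CPM in WT SLEC. The 10 B cell markers summed to 257.4 and 1154 CPM in WT SLEC on day 14, to 120 CPM in WT MPEC replicate 1 and to 1.669 to 23.88 CPM in the other 9 libraries. Of the markers of germinal centre B cells, Bcl6 and S1pr2, which T cells can express too, had 19.3 to 32.5 CPM and 5.44 to 16.3 CPM on day 14, against 6.10 to 10.1 CPM and 1.63 to 13.3 CPM on day 7, and Mef2b, Gcsam and Rgs13 had 0 to 0.759 CPM. Erythroid markers were highest in KO SLEC on day 7, where replicate 1 had a sum of 101.2 CPM against 0 to 26.64 CPM in the other 11 libraries. Monocyte and macrophage markers summed to 61.97 and 50.44 CPM in WT SLEC on day 14 and to 7.009 to 31.33 CPM elsewhere. Neutrophil markers summed to 55.94 and 5.379 CPM in WT SLEC on day 14 and to 0 to 5.061 CPM elsewhere. The part of these other cells in the results was not tested. WT SLEC day 14 replicate 2 also had counts in 25372 genes, against 16088 to 21214 in the other 11 libraries.

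One pair of libraries has to be described before the comparisons. The 39 members summed to 1356 CPM in WT SLEC day 7 replicate 1 and to 3626 CPM in replicate 2, and replicate 2 was the higher one for all 39, by 1.04-fold for Rpa2 to 7.26-fold for Cdc6 with a median of 2.95-fold. In KO SLEC on day 7 the 2 libraries summed to 2784 and 2475 CPM, and replicate 2 was higher for 11 of 39. Over all genes tested, the median log2 ratio of the 2 WT day 7 libraries was 0. Replicate 1 thus held less RNA of these genes than replicate 2, and the KO libraries of the same day lay in between. The 30 genes of G2 and M phase, the division that follows S phase, also differed, with 1407 and 3590 CPM. The SLEC markers summed to 7229 CPM in replicate 1 and 4371 CPM in replicate 2, and mitochondrial ribosomal RNA took 18.3% and 12.6% of counts. The variance between these 2 libraries was 72.9 times that of counting error, against 12.8 to 27.6 times in the other groups. Both libraries were kept. For each comparison that uses them, the counts, the medians and the WT calls are also given with one or the other left out, and the summed levels are given against each.

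**Figure D1:**
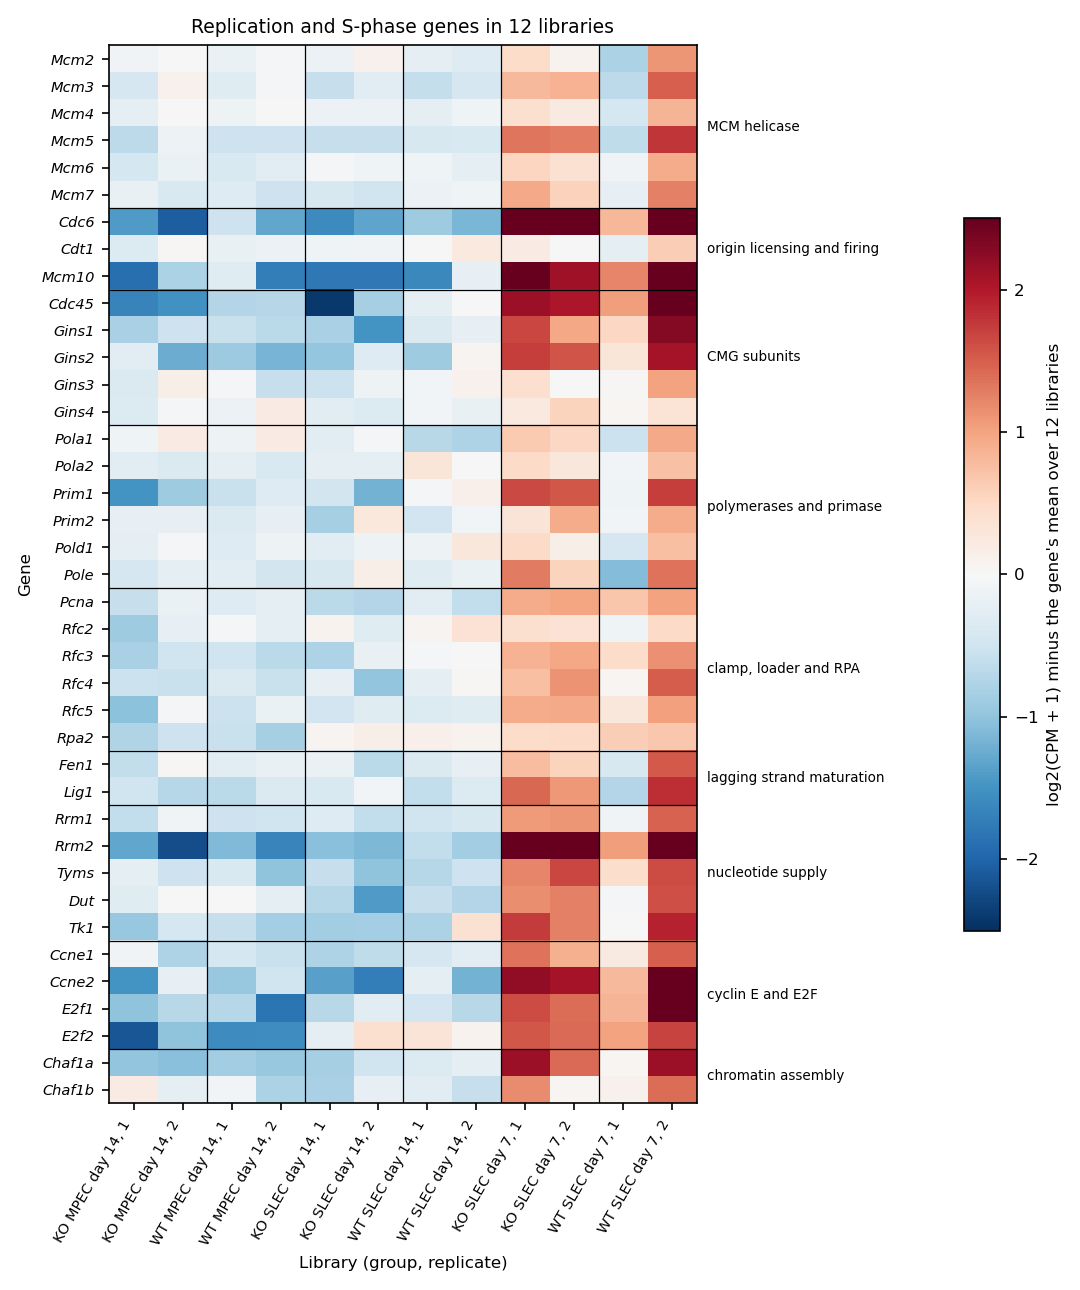
Level of each of the 39 genes (down, grouped by role) in each of the 12 libraries (across), as log2(CPM + 1) minus the gene's mean over the 12 libraries, with the colour scale limited at 2.5 in each direction. The KO SLEC day 7 libraries and WT SLEC day 7 replicate 2 are red for nearly all genes, WT SLEC day 7 replicate 1 is mixed, and the 8 day 14 libraries are mostly blue.

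The first comparison sets SLEC on day 14 against SLEC on day 7 within each genotype. Replication genes were lower on day 14 in both, but in WT the size of the fall depends on the day 7 library used. Without WT SLEC day 7 replicate 2 the WT median log2 change was -0.20, with 26 negative and 13 positive changes. In KO, 21 of 39 members fell and none rose (edgeR's quasi-likelihood test with Benjamini-Hochberg adjustment over all genes, adjusted p under 0.05), where 9.50% of all genes tested were called lower and 7.70% higher; the 39 had a median log2 change of -1.51, against -0.01 for all genes. In WT, 15 of 39 fell and none rose, where 5.25% of all genes were called lower and 4.69% higher, and the median was -1.20, against 0.01. With DESeq2 in place of edgeR, 25 members were called lower in KO and 20 in WT (10.5% and 5.37% of all genes) and none higher (9.04% and 4.35%), and no member had a positive change with an unadjusted p under 0.05. Of the 15 members called in WT, 14 were also called in KO (93.3% of the WT list and 66.7% of the KO list), and Rpa2 was the other one. Both day 14 libraries lay below both day 7 libraries for 38 members in KO, where 29.0% of all genes did so, and for 24 members in WT, where 24.3% did so. From whole cells sorted in bulk, fewer cells in S phase and less of this RNA in each cell cannot be told apart.

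The summed level of the 39 on day 14 was 1142 and 1214 CPM in KO SLEC, 44.8% of the day 7 mean, and 1209 and 1244 CPM in WT SLEC, 49.2% of the day 7 mean. The 2 WT day 7 libraries gave different pictures: the WT day 14 mean was 90.4% of replicate 1 and 33.8% of replicate 2. In KO, deoxynucleotide supply genes stood at 20.4% of day 7, chromatin assembly genes at 23.7%, cyclin E and E2F genes at 32.2%, CMG subunits at 36.5%, lagging strand genes at 38.3% and origin licensing and firing genes at 39.5%. Polymerases and primase stood at 53%, the clamp, loader and RPA group at 56% and the MCM ring at 56.6%. In WT, relative to the mean of both day 7 libraries, deoxynucleotide supply genes stood at 26.8%, chromatin assembly genes at 32.4%, lagging strand genes at 37%, cyclin E and E2F genes at 38.1%, CMG subunits at 46.4% and origin licensing and firing genes at 47.5%. The MCM ring stood at 55.2%, the clamp, loader and RPA group at 63.2% and polymerases and primase at 64.3%. Against replicate 1 alone, the WT day 14 level was higher for the MCM ring (111%), the polymerases and primase (120%) and the lagging strand genes (116%), 96.9% for origin licensing and firing and between 55.7% (cyclin E and E2F) and 75.8% (CMG subunits) for the other 5 roles. Against replicate 2 alone it was lower for every role, at 17.3% (nucleotide supply) to 55.6% (clamp, loader and RPA). The 30 genes of G2 and M phase, for comparison, stood at 5.49% in KO and 9.44% in WT, with 16.8% and 6.57% against WT replicates 1 and 2. The difference between roles was not tested.

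The helicase ring itself, Mcm2 to Mcm7, had no member that passed the test in either genotype with all 12 libraries. Mcm2 (ENSMUSG00000002870.8, chromosome 6, 88883474 to 88898780, minus strand, in build GRCm38, which holds for all positions given) had 80.8 and 96.9 CPM in KO SLEC on day 14, against 123 and 95.5 CPM on day 7. In WT SLEC it had 75.4 and 71.9 CPM on day 14, against 51.4 and 193 CPM on day 7. The groups overlapped in both genotypes, and the lowest Mcm2 value of all 12 libraries was that of WT SLEC day 7 replicate 1. KO MPEC had 83.9 and 90.0 CPM, against 80.2 and 88.0 CPM in WT MPEC. The log2 change, here and throughout with its standard error from the fit over 2 libraries per group, was -0.31 ± 0.52, adjusted p = 0.739 in KO and -0.74 ± 0.51, adjusted p = 0.458 in WT. The other 5 ring genes had log2 changes of -1.91 (Mcm5) to -0.47 (Mcm4) in KO, each with both day 14 libraries below both day 7 libraries. With any 1 library left out these KO changes stayed negative, for example -1.43 to -1.12 for Mcm3 and -1.93 to -1.90 for Mcm5. The shared estimate of spread includes the unlike WT day 7 pair, so a KO gene without a call is not shown to have kept its level. In WT the same 5 genes had -1.46 (Mcm5) to -0.53 (Mcm4). For the whole ring, the WT log2 changes ran from -2.22 (Mcm5) to -1.04 (Mcm4) without WT SLEC day 7 replicate 1. Without replicate 2 they ran from -0.07 (Mcm6) to 0.52 (Mcm2). Mcm6, the ring gene with the highest level per kilobase of exon in KO SLEC, had 173 and 163 CPM in KO SLEC on day 14, against 256 and 231 CPM on day 7, and 163 and 153 CPM in WT SLEC on day 14, against 166 and 338 CPM on day 7. It was the 1 ring gene whose WT libraries did not overlap, by a small margin (adjusted p = 0.156 in KO and 0.1 in WT).

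Of the genes that load and fire origins, Cdc6 and Mcm10 fell in both genotypes and Cdt1 did not pass the test. Cdc6, the ATPase that recruits the ring to origins (ENSMUSG00000017499.15, chromosome 11, 98907801 to 98923940, plus strand), had 0.506 and 0.825 CPM in KO SLEC on day 14, against 36.8 and 31.4 CPM on day 7. WT SLEC had 1.47 and 1.08 CPM on day 14, against 7.07 and 51.4 CPM on day 7. MPEC on day 14 had 0.719 and 0.0959 CPM in KO, against 2.19 and 0.848 CPM in WT. All 8 day 14 libraries thus lay below all 4 day 7 libraries, including WT replicate 1. The log2 change from day 7 was -5.71 ± 1.19, adjusted p = 0.00927 in KO SLEC and -4.53 ± 0.93, adjusted p = 0.0129 in WT SLEC. Mcm10, which helps to activate the loaded helicase (ENSMUSG00000026669.14, chromosome 2, 4989714 to 5012791, minus strand), had 0.405 and 0.412 CPM in KO SLEC on day 14, against 44.6 and 20.1 CPM on day 7, and 0.589 and 3.23 CPM in WT SLEC on day 14, against 10.3 and 54.7 CPM on day 7. In MPEC it had 0.308 and 1.82 CPM in KO, against 2.95 and 0.471 CPM in WT. Day 14 SLEC lay below day 7 SLEC without overlap, and the log2 change was -6.30 ± 1.49, adjusted p = 0.0211 in KO and -4.02 ± 0.96, adjusted p = 0.0315 in WT. KO SLEC on day 14 had 4 and 3 counts of Mcm10 and 5 and 6 of Cdc6, so the size of these KO changes rests on a few reads. Cdt1, the partner of Cdc6 in loading, had 45.5 and 46.3 CPM in KO SLEC on day 14, against 56.8 and 48.4 CPM on day 7, and 49.5 and 58.6 CPM in WT SLEC on day 14, against 41.6 and 75.6 CPM on day 7. Its log2 changes, -0.20 in KO and -0.12 in WT, were the smallest of the 39 in KO and the smallest but for Rfc2 in WT.

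The subunits that complete the CMG helicase fell unevenly. Cdc45 (ENSMUSG00000000028.15, chromosome 16, 18780447 to 18811987, minus strand) had 0.202 and 2.61 CPM in KO SLEC on day 14, against 27.4 and 25 CPM on day 7. In WT SLEC on day 14 it had 4.49 and 5.38 CPM, against 12.2 and 48.7 CPM on day 7. KO MPEC had 1.03 and 1.25 CPM, against 2.87 and 2.92 CPM in WT MPEC. Day 14 lay below day 7 without overlap in each genotype, with a log2 change of -4.40 ± 0.87, adjusted p = 0.0062 in KO SLEC and -2.62 ± 0.58, adjusted p = 0.0162 in WT SLEC. Of the GINS complex, which clamps Cdc45 to the ring, Gins1 and Gins2 fell in both genotypes, with log2 changes of -4.16 and -2.89 in KO and -2.58 and -2.13 in WT. Gins4 fell in KO (-0.72 ± 0.22, adjusted p = 0.0329) and had a log2 change of -0.34 in WT, and Gins3 passed the test in neither (-0.65 and -0.62). Gins1 had 6 and 0 counts in KO SLEC on day 14.

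Among the polymerases and primase, only 1 of 6 genes passed the test in KO and none in WT. Prim1, the catalytic primase subunit that makes the RNA primer (ENSMUSG00000025395.14, chromosome 10, 128015168 to 128030037, plus strand), had 11.1 and 6.32 CPM in KO SLEC on day 14, against 51.1 and 48.0 CPM on day 7. In WT SLEC the values were 15.1 and 17.3 CPM on day 14, against 14.5 and 54.5 CPM on day 7. MPEC had 4.93 and 7.96 CPM in KO, against 10.3 and 12.2 CPM in WT. The KO SLEC groups were far apart and the WT groups overlapped, the lower WT day 7 library being just below both WT day 14 libraries. The log2 change was -2.46 ± 0.56, adjusted p = 0.0144 in KO and -1.09 ± 0.48, adjusted p = 0.202 in WT, and the difference between them, -1.37 ± 0.75, adjusted p = 0.789, did not pass the test. The other primase subunit Prim2, both subunits of polymerase alpha (Pola1 and Pola2) and the catalytic subunits of polymerases delta (Pold1) and epsilon (Pole) had log2 changes of -1.12 (Pole) to -0.55 (Pold1) in KO and of -1.15 (Pola1) to -0.19 (Pold1) in WT. In KO, both day 14 libraries of each lay below both day 7 libraries. With 1 library left out, the KO change ran from -1.44 to -0.70 for Pole and from -0.70 to -0.39 for Pold1.

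The sliding clamp gave the smallest adjusted p of all members in both genotypes. Pcna, which holds polymerases on DNA (ENSMUSG00000027342.14, chromosome 2, 132249162 to 132253314, minus strand), had 19.6 and 18.8 CPM in KO SLEC on day 14, against 61.1 and 64.0 CPM on day 7. WT SLEC had 26.1 and 20.3 CPM on day 14, against 52.2 and 65.0 CPM on day 7. KO MPEC had 21.0 and 28.1 CPM, against 25.1 and 26.9 CPM in WT MPEC. Every day 7 library, WT replicate 1 included, stood well above all 8 day 14 libraries. Its log2 change was -1.70 ± 0.22, adjusted p = 6.77e-05 in KO SLEC and -1.34 ± 0.20, adjusted p = 0.00038 in WT SLEC, and it kept its call in 12 and 12 of 12 omissions of a library. The clamp loader subunits Rfc3, Rfc4 and Rfc5 fell in KO, with log2 changes of -1.56, -1.59 and -1.39, and Rfc5 also fell in WT (-1.08 ± 0.29, adjusted p = 0.0238), while Rfc2 passed the test in neither genotype (-0.47 in KO and 0.02 in WT). Rpa2, the middle subunit of the RPA complex that coats single-stranded DNA, fell in WT (-0.54 ± 0.15, adjusted p = 0.0282) and had a log2 change of -0.37 ± 0.16, adjusted p = 0.116 in KO.

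The genes that finish the lagging strand did not pass the test. Lig1, the ligase that seals Okazaki fragments (ENSMUSG00000056394.17, chromosome 7, 13277283 to 13311433, plus strand), had 44.8 and 55.7 CPM in KO SLEC on day 14, against 159.9 and 124 CPM on day 7. In WT SLEC it had 37.8 and 46.1 CPM on day 14, against 34.97 and 212 CPM on day 7. MPEC had 41.0 and 35.2 CPM in KO, against 36.1 and 45.5 CPM in WT. The KO SLEC groups did not overlap, while WT replicate 1 on day 7 was below both WT day 14 libraries and replicate 2 was the highest of all 12 libraries. The log2 change was -1.51 ± 0.74, adjusted p = 0.226 in KO and -1.56 ± 0.72, adjusted p = 0.259 in WT. Without WT SLEC day 7 replicate 1 it was called in both genotypes. Fen1, the flap endonuclease that trims Okazaki fragments, had log2 changes of -1.08 in KO and -1.19 in WT.

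Genes that supply deoxynucleotides all fell in KO, and 3 of 5 fell in WT. Rrm2, the small subunit of ribonucleotide reductase (ENSMUSG00000020649.11, chromosome 12, 24708241 to 24714146, plus strand), had 6.37 and 6.05 CPM in KO SLEC on day 14, against 107 and 97.7 CPM on day 7. In WT SLEC it had 8.98 and 7.34 CPM on day 14, against 30.6 and 156 CPM on day 7. Levels in MPEC were 5.24 and 2.30 CPM in KO, against 6.12 and 3.86 CPM in WT. The highest of the 8 day 14 libraries had 8.98 CPM and the lowest of the 4 day 7 libraries 30.6 CPM. The log2 change was -4.04 ± 0.87, adjusted p = 0.022 in KO SLEC and -3.52 ± 0.77, adjusted p = 0.0329 in WT SLEC. Rrm1, the large subunit, changed less, with -1.56 ± 0.44, adjusted p = 0.0437 in KO and -1.37 ± 0.42, adjusted p = 0.0836 in WT. Tyms, thymidylate synthase (ENSMUSG00000025747.12, chromosome 5, 30058202 to 30073617, minus strand), had 8.70 and 6.18 CPM in KO SLEC on day 14, against 32.7 and 44.9 CPM on day 7, and 7.80 and 9.11 CPM in WT SLEC on day 14, against 18.8 and 43.9 CPM on day 7. KO MPEC had 11.4 and 9.20 CPM, against 10.2 and 6.22 CPM in WT MPEC. All day 14 values were below all day 7 values, and the log2 change of -2.34 ± 0.40, adjusted p = 0.00103 in KO and -1.89 ± 0.36, adjusted p = 0.00354 in WT kept its call in 12 and 12 of 12 omissions. Dut, the dUTPase that keeps uracil out of DNA, fell in KO (-2.27) and in WT (-1.72), and thymidine kinase Tk1 fell in KO (-2.76) and had -1.48 in WT. The call of Dut was kept in 9 of 12 omissions in KO but in 1 of 12 in WT (log2 -2.33 to -0.65, adjusted p up to 0.243), that of Rrm2 in 8 and 4, that of Rrm1 in KO in 3 (adjusted p up to 0.218) and that of Tk1 in KO in 8.

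All 4 regulators of entry into S phase fell in both genotypes. Ccne1, one of the 2 cyclin E genes (ENSMUSG00000002068.16, chromosome 7, 38097984 to 38107534, minus strand), had 10.3 and 11.4 CPM in KO SLEC on day 14, against 48.6 and 34.8 CPM on day 7, and 13.5 and 15.2 CPM in WT SLEC on day 14, against 21.5 and 53.3 CPM on day 7. In MPEC it had 17.1 and 10.4 CPM in KO, against 13.4 and 12.2 CPM in WT. Its log2 change in SLEC was -1.96 ± 0.40, adjusted p = 0.00427 in KO and -1.38 ± 0.35, adjusted p = 0.0235 in WT, with no overlap of the groups. Ccne2, the other cyclin E gene (ENSMUSG00000028212.16, chromosome 4, 11191351 to 11204779, plus strand), had 1.01 and 0.550 CPM in KO SLEC on day 14, against 22.9 and 20.6 CPM on day 7, and 3.39 and 1.27 CPM in WT SLEC on day 14, against 8.03 and 28.9 CPM on day 7. In MPEC it had 0.821 and 3.45 CPM in KO, against 1.66 and 2.64 CPM in WT. The SLEC groups did not overlap, with a log2 change of -4.73 ± 0.85, adjusted p = 0.00217 in KO and -3.03 ± 0.61, adjusted p = 0.00691 in WT. The call was kept in 12 of 12 omissions in KO and 10 of 12 in WT. E2f1, an activator of S-phase genes (ENSMUSG00000027490.17, chromosome 2, 154559407 to 154569892, minus strand), had 2.02 and 3.02 CPM in KO SLEC on day 14, against 14.2 and 11.9 CPM on day 7, and 2.502 and 2.02 CPM in WT SLEC on day 14, against 7.79 and 26.7 CPM on day 7. All 4 day 7 libraries were higher than all 4 day 14 libraries, and the log2 change was -2.42 ± 0.65, adjusted p = 0.02 in KO and -2.94 ± 0.55, adjusted p = 0.00354 in WT.

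E2f2, an activator of the same family (ENSMUSG00000018983.9, chromosome 4, 136172394 to 136196057, plus strand), had 51.6 and 79.3 CPM in KO SLEC on day 14, against 178 and 163 CPM on day 7. WT SLEC had 75.5 and 63.7 CPM on day 14, against 122 and 197 CPM on day 7. Unlike E2f1 it stayed well measured on day 14, and its groups did not overlap, with a log2 change of -1.39 ± 0.31, adjusted p = 0.0117 in KO and -1.20 ± 0.30, adjusted p = 0.0293 in WT. Of the chromatin assembly factor that places histones behind the fork, the large subunit Chaf1a (ENSMUSG00000002835.9, chromosome 17, 56040439 to 56072289, plus strand) had 10.3 and 13.3 CPM in KO SLEC on day 14, against 88.1 and 53.2 CPM on day 7, and 14.9 and 16.3 CPM in WT SLEC on day 14, against 19.9 and 88.7 CPM on day 7. Levels in MPEC were 9.24 and 8.82 CPM in KO, against 10.05 and 9.52 CPM in WT. It fell in KO SLEC (-2.61 ± 0.69, adjusted p = 0.0404) and not by the test in WT (-1.80 ± 0.62, adjusted p = 0.125), where the groups did not overlap either but replicate 1 of day 7 lay close to day 14. Its KO call was kept in only 2 of 12 omissions of a library, with an adjusted p of up to 0.188 without KO SLEC day 14 replicate 1. The other subunit, Chaf1b, had log2 changes of -1.33 and -1.38 and passed the test in neither.

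**Figure D2:**
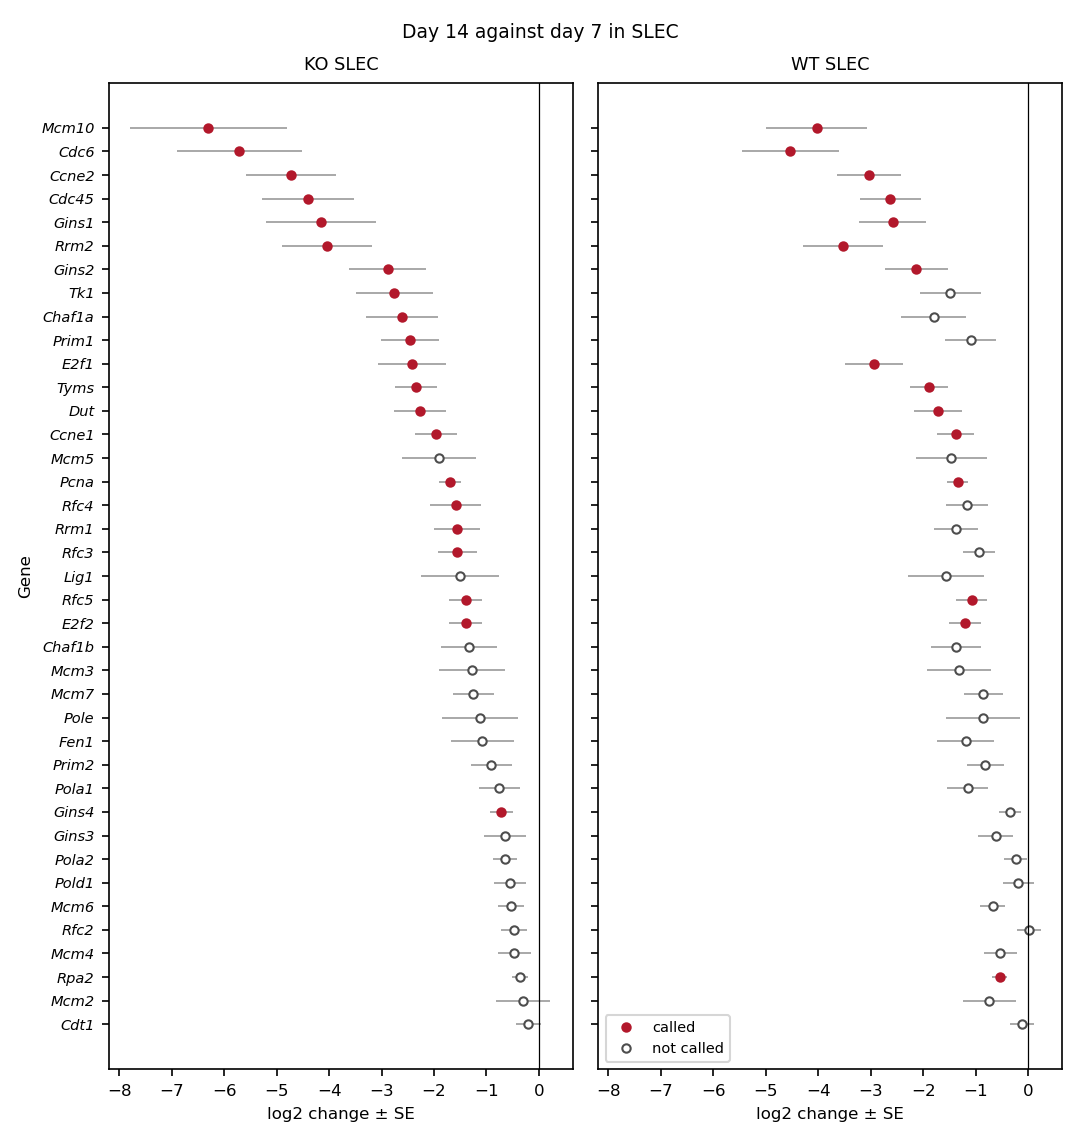
Log2 change of day 14 against day 7 in SLEC (across) with its standard error (bars) for the 39 genes (down, ordered by the KO change), in KO on the left and WT on the right, with filled points for genes called at an adjusted p under 0.05. The 21 genes called in KO include 14 of the 15 called in WT, and the points of the MCM ring are open in both panels.

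**Figure D3:**
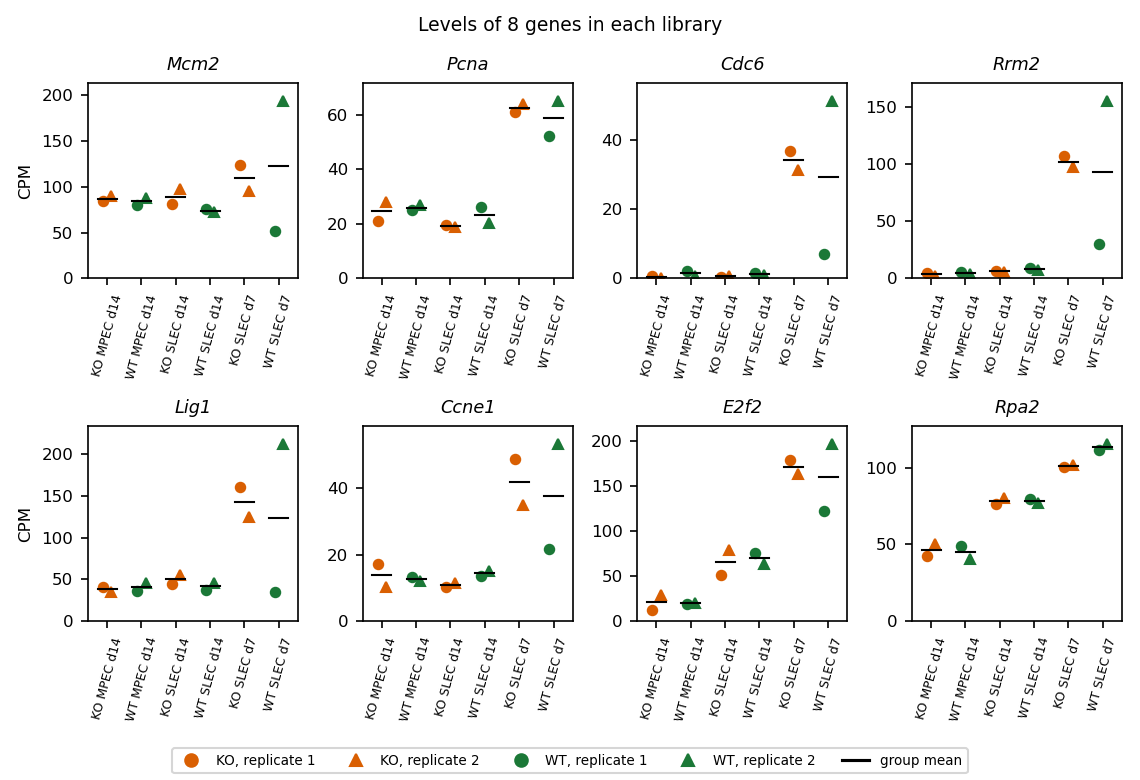
CPM of 8 genes in each library by group (circles replicate 1, triangles replicate 2, orange KO, green WT, black lines group means). Cdc6 and Rrm2 are near 0 in all day 14 libraries, Mcm2 and Lig1 in WT SLEC day 7 replicate 1 are at or below their day 14 levels, and E2f2 and Rpa2 are lower in MPEC than in SLEC on day 14.

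What remained on day 14 was a different mixture of these genes. Per kilobase of exon, the highest mean levels in KO SLEC on day 14 were those of Mcm6 (36.1 CPM per kb), Mcm4 (29.3), Rpa2 (26.2), Mcm3 (17.8), Gins4 (17.3) and Cdt1 (14.6). In KO SLEC on day 7 they were Mcm6 (52.2 CPM per kb), Mcm3 (42.9), Mcm4 (40.5), Mcm5 (37.1), Rrm2 (37.0) and E2f2 (34.9). Rrm2, the fifth gene on day 7, stood at 2.24 CPM per kb on day 14. The lowest on day 14 were Mcm10 (0.0531 CPM per kb), Cdc6 (0.127), Gins1 (0.200) and Ccne2 (0.223). The 6 ring genes took 43.1% and 42.1% of the summed CPM of the 39 in KO SLEC on day 14, against 33.4% and 34.0% on day 7, and 39.8% and 39.1% in WT SLEC on day 14, against 32.1% and 36.3% on day 7. Nucleotide supply genes took 7.24% and 5.23% in KO SLEC on day 14, against 12.8% and 14.6% on day 7, and 6.71% and 6.97% in WT SLEC on day 14, against 10.4% and 13.4% on day 7. For these 2 roles the shares of day 14 and day 7 did not overlap, also with WT replicate 1 of day 7 included, whose summed level was 1.11 times the WT day 14 mean. These shares are descriptions without a test, and a share per role depends on the lengths and levels of its genes.

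The WT result of this comparison rests on which day 7 library is used. Without WT SLEC day 7 replicate 1, 35 of 39 members were called lower in WT (6.65% of all genes), with a median log2 change of -1.75. Without replicate 2, 5 of 39 were called (3.78% of all genes), with a median of -0.20 and 13 positive changes. All 15 WT calls were kept without replicate 1. Without replicate 2, Cdc6, E2f1, Pcna, Rrm2 and Tyms kept theirs, with log2 changes of -2.48, -1.79, -1.17, -1.91 and -1.14. The other 10 lost it. Mcm10 had -2.36 (adjusted p = 0.0698), Cdc45 -1.30 (0.0627), Gins1 -1.18 (0.37), Gins2 -0.80 (0.507) and Rfc5 -0.64 (0.247). Rpa2 had -0.51 (adjusted p = 0.0799), Dut -0.65 (0.139), Ccne1 -0.58 (0.286), Ccne2 -1.83 (0.052) and E2f2 -0.81 (0.116). Set beside WT SLEC on day 14, replicate 1 was above both libraries for 24 members and below both for 13, whereas replicate 2 was above both for all 39. In replicate 1 the G2 and M phase genes were nonetheless 5.96 times the WT day 14 mean (15.2 times in replicate 2). In KO, more members were called with either of these WT libraries left out than with all 12 libraries, and the medians were -1.52 and -1.51. The KO libraries are unchanged in these fits. A library alone in its group adds nothing to the shared estimate of spread, which then holds no WT day 7 spread. A fit to the 4 KO SLEC libraries alone called 31 members lower in KO, and a fit with no scaling factor called 15. For these 2 fits and the fits that follow, the share of all genes called is not given. Their counts show how the calls moved and do not set the members apart from all genes. Other omissions also moved the KO count of 21 by over 1.5 times, to 4 and 8 when a KO SLEC day 14 library was omitted (replicates 1 and 2) and to 9 and 10 when a KO SLEC day 7 library was. For the WT count of 15, omission of WT SLEC day 14 replicate 1 or 2 gave 4 and 2, a fit to these 4 libraries alone gave 1 (Pcna), and a fit with no scaling factor gave 9. Over all 12 omissions, Pcna, Tyms and Ccne2 kept their call every time in KO, and Pcna and Tyms in WT. The 21 KO calls were kept in a median of 9 omissions, with Rrm1 and Chaf1a under 6, and the 15 WT calls also in a median of 9, with Gins2, Rrm2 and Dut under 6.

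Genes of the same pathway outside the 39 were counted in the same way. For each list, the shares of all genes tested are 9.50% called lower and 7.70% higher in KO. In WT they are 5.25% and 4.69%. The shares called lower with a WT day 7 library left out are given above. Of 52 other replication genes, 22 fell and 1 rose in KO SLEC on day 14 against day 7, and 8 fell and none rose in WT, with median log2 changes of -0.89 and -0.57. The WT count was 29 lower and 1 higher without WT SLEC day 7 replicate 1, and 1 lower without replicate 2. The one that rose in KO, named after its value was seen, was Orc5, a subunit of the origin recognition complex (0.73 ± 0.23, adjusted p = 0.0325). Top2a, the topoisomerase that untangles copied DNA, was among the 4 called genes with the smallest p in each genotype. It fell in KO (-3.67 ± 0.43, adjusted p = 0.000793) and in WT (-2.82 ± 0.40, adjusted p = 0.00333). The smallest p of this list in WT was that of Rnaseh2b (-1.76 ± 0.34, adjusted p = 0.00277). The nuclease Dna2 fell as well (-3.91 ± 0.55, adjusted p = 0.000155 in KO and -1.67 ± 0.40, adjusted p = 0.0123 in WT), as did Orc6 (-2.73 ± 0.38, adjusted p = 0.000151) and Dbf4 (-1.58 ± 0.22, adjusted p = 0.000151) in KO and Orc1 (-4.00 ± 0.79, adjusted p = 0.00295) in WT. Of 31 tested regulators of E2F, RB and the G1 to S step, 11 fell and 1 rose in KO and 6 fell and 1 rose in WT (10 and 2 without WT SLEC day 7 replicate 1, 4 and 1 without replicate 2). The one that rose was Ccnd2, the cyclin D2 gene (1.58 ± 0.16, adjusted p = 8.42e-06 in KO and 1.29 ± 0.16, adjusted p = 7.61e-05 in WT), and Ccna2, the cyclin of S phase and G2, fell (-6.03 ± 0.97, adjusted p = 0.00526 in KO and -4.58 ± 0.77, adjusted p = 0.0101 in WT), as did the repressor E2f8 (-6.15 ± 1.04, adjusted p = 0.00388 in KO and -4.37 ± 0.80, adjusted p = 0.0087 in WT). Cdkn2c also fell in KO (-3.34 ± 0.55, adjusted p = 0.000583), and Tfdp1 in WT (-1.35 ± 0.31, adjusted p = 0.0097). Of 30 genes of G2 and M phase, 29 fell in each genotype, with median log2 changes of -4.48 in KO and -3.21 in WT, and in WT 30 fell without replicate 1 of day 7 and 26 without replicate 2. Ube2c, a ubiquitin-conjugating enzyme of mitotic exit, was among those with the smallest p in both (-7.37 ± 0.65, adjusted p = 1.82e-06 in KO and -4.46 ± 0.44, adjusted p = 7.21e-06 in WT).

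The second comparison sets MPEC against SLEC on day 14. Replication genes as a whole were at like levels: the 39 summed to 1012 and 1219 CPM in KO MPEC, against 1142 and 1214 CPM in KO SLEC, and to 1092 and 1124 CPM in WT MPEC, against 1209 and 1244 CPM in WT SLEC. In both genotypes the same 2 of 39 members, E2f2 and Rpa2, were called lower in MPEC and none higher, where 2.21% of all genes were called lower in KO and 4.30% in WT, and 2.90% and 3.66% higher. Beside these shares, a count of 2 among 39 says little about the members as a list. No other member had an unadjusted p under 0.05, and DESeq2 called 2 lower and none higher in each genotype (3.57% and 3.86% of all genes in KO, 3.99% and 3.46% in WT). The members had a median log2 change of 0.02 in KO and -0.16 in WT, against -0.003 and -0.0049 for all genes. Both MPEC libraries lay below both SLEC libraries for 8 members in KO and 19 in WT (23.2% and 29.1% of all genes) and above them for 5 and 4 (23.5% and 28.2%).

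E2f2 had 12.8 and 29.2 CPM in KO MPEC, against 51.6 and 79.3 CPM in KO SLEC. It had 19.6 and 19.9 CPM in WT MPEC, against 75.5 and 63.7 CPM in WT SLEC. The groups did not overlap in either genotype, and all 4 MPEC libraries were below all 4 SLEC libraries. The log2 change was -1.62 ± 0.35, adjusted p = 0.0226 in KO and -1.81 ± 0.34, adjusted p = 0.00838 in WT. It kept the call in 9 of 12 omissions in KO, with log2 changes of -2.34 to -1.15, and in 10 of 12 in WT, with -1.94 to -1.69. The adjusted p rose to 0.0821 without KO MPEC replicate 1, 0.171 without KO SLEC day 14 replicate 2 and 0.0528 without KO SLEC day 7 replicate 2, and in WT to 0.0694 and 0.0851 without WT MPEC replicate 1 or 2. E2f1, its relative, had 1.44 and 2.01 CPM in KO MPEC, against 2.02 and 3.02 CPM in KO SLEC, and 1.96 and 0.377 CPM in WT MPEC, against 2.502 and 2.02 CPM in WT SLEC, with a log2 change of -0.50 ± 0.98, adjusted p = 0.868 in KO and -0.84 ± 0.93, adjusted p = 0.681 in WT.

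Rpa2 (ENSMUSG00000028884.14, chromosome 4, 132768332 to 132778752, plus strand) had 42.8 and 50.6 CPM in KO MPEC, against 76.5 and 80.4 CPM in KO SLEC. In WT the values were 49.2 and 40.6 CPM in MPEC, against 79.3 and 76.8 CPM in SLEC. On day 7 it had 100.3 and 102 CPM in KO SLEC, against 111 and 116 CPM in WT SLEC. The 3 populations were ordered without overlap, with MPEC on day 14 lowest, SLEC on day 14 next and SLEC on day 7 highest, and the 2 WT day 7 libraries differed less for Rpa2 than for any other member. The log2 change between MPEC and SLEC was -0.75 ± 0.16, adjusted p = 0.00956 in KO and -0.79 ± 0.16, adjusted p = 0.00427 in WT. The call held in 10 of 12 omissions in KO and 11 of 12 in WT, and was lost without KO MPEC replicate 1 (adjusted p = 0.124), KO SLEC day 14 replicate 2 (0.0931) or, in WT, WT MPEC replicate 2 (0.11).

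Members that stood apart from these 2 had wide errors or small changes. Mcm10, Cdc6, Gins1 and Ccne2, with a few counts per library on day 14, had standard errors of 1.35 to 3.06 in KO, so that changes of several fold between MPEC and SLEC were not detectable for them at this depth. The ring genes had log2 changes of -0.22 to 0.30 in KO and -0.30 to 0.35 in WT. Dut had 25.3 and 31.1 CPM in KO MPEC, against 18.8 and 11.1 CPM in KO SLEC, and 31.1 and 26.5 CPM in WT MPEC, against 20.6 and 18.5 CPM in WT SLEC. MPEC was the higher population in both genotypes without overlap, but the log2 changes of 0.88 ± 0.54, adjusted p = 0.471 in KO and 0.57 ± 0.48, adjusted p = 0.579 in WT did not pass the test. Pola1 had a log2 change of 0.78 ± 0.39, adjusted p = 0.295 in WT and 0.22 ± 0.40, adjusted p = 0.855 in KO. Dut in KO and Pola1 in WT, named after their values were seen, were called higher in MPEC with either WT SLEC day 7 library left out. Of the 52 other replication genes, 1 rose in MPEC in each genotype and none fell. Of all genes, 2.90% in KO and 3.66% in WT were called higher, so a count of 1 among 52 says little about this list. The gene was Shmt1, a serine hydroxymethyltransferase gene of folate metabolism (3.72 ± 0.81, adjusted p = 0.00876 in KO and 2.07 ± 0.49, adjusted p = 0.0123 in WT). Myc, a transcription factor of growth, rose in the list of E2F, RB and G1 to S regulators (4.12 ± 0.45, adjusted p = 0.000217 in KO and 2.75 ± 0.37, adjusted p = 0.000844 in WT), and it was the 1 gene that rose there in KO. In WT the kinase gene Cdk6 rose too (0.66 ± 0.17, adjusted p = 0.0252). The genes that fell there were Lin54 and Cdkn2d in KO (-1.04 ± 0.23, adjusted p = 0.0113 and -0.80 ± 0.21, adjusted p = 0.027) and Cdk2 and Rb1 in WT (-1.61 ± 0.35, adjusted p = 0.00978 and -0.70 ± 0.18, adjusted p = 0.0218). No gene of G2 and M phase was called.

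**Figure D4:**
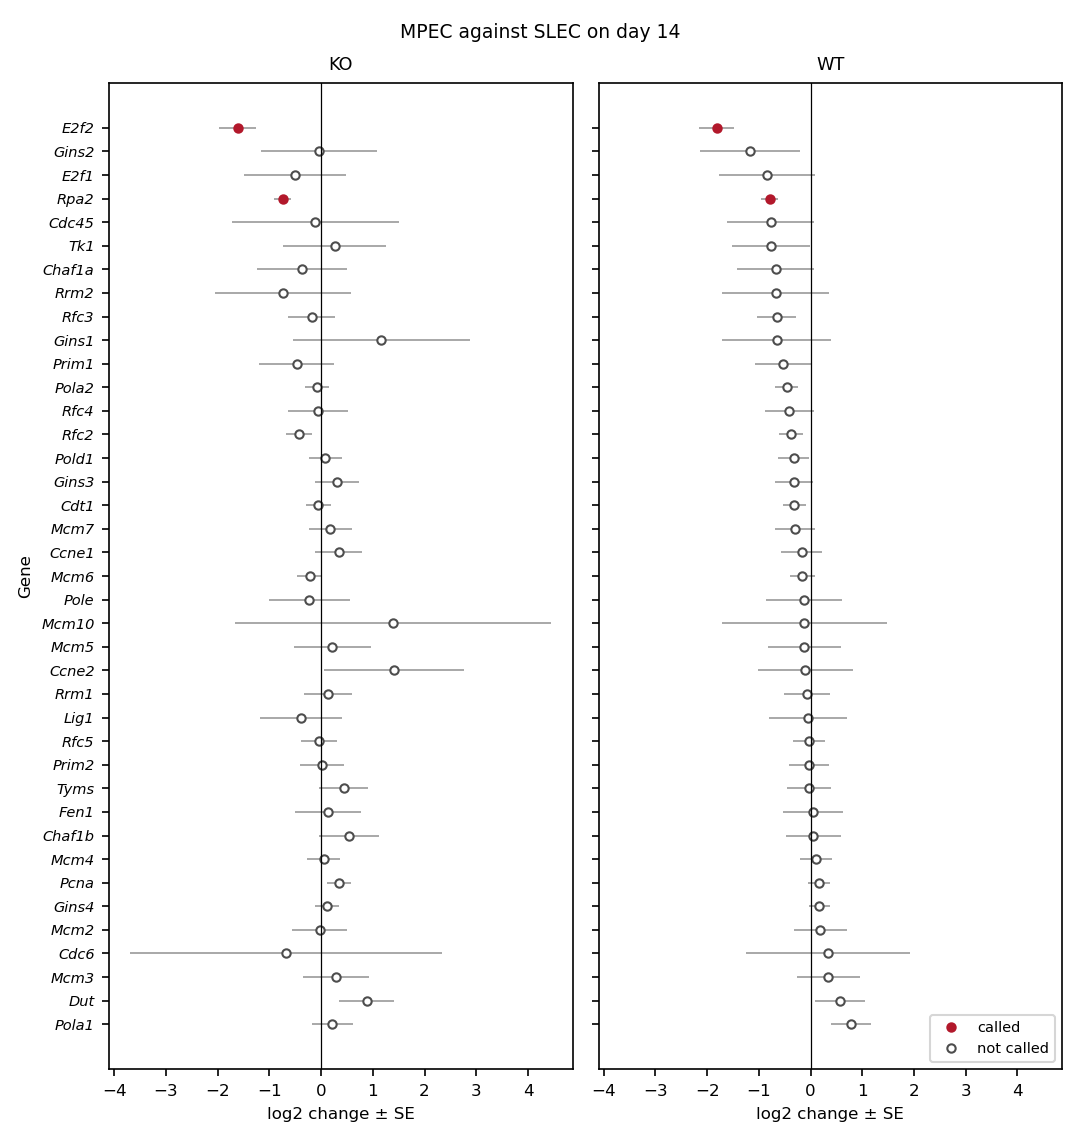
Log2 change between MPEC and SLEC on day 14 (across) with its standard error (bars) for the 39 genes (down, ordered by the WT change), in KO on the left and WT on the right, with filled points for called genes. E2f2 and Rpa2 are the 2 filled points in each panel, and the widest bars belong to genes with few counts.

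MPEC on day 14 and SLEC on day 7 differ in both population and day, which cannot be told apart in this contrast. In KO, 23 of 39 members were lower in MPEC and none higher, where 10.8% of all genes were called lower and 9.88% higher, and the median log2 change was -1.42, against -0.02 for all genes. In WT, 20 of 39 were lower and none higher, where 9.04% of all genes were called lower and 8.13% higher, and the median was -1.34, against 0.00. No positive change had an unadjusted p under 0.05, and DESeq2 called 26 lower in KO and 25 in WT (11.6% and 9.36% of all genes) and none higher (10.1% and 7.98%). Both MPEC libraries lay below both day 7 libraries for 36 members in KO (29.1% of all genes) and for 26 in WT (28.4%). The comparison shares its day 7 libraries with the one between days, so the 2 are not independent.

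E2f2 and Rpa2, the pair that was lower in MPEC than in SLEC on day 14, were called in both genotypes here too, and Rpa2 had the smallest adjusted p of the 39 in both genotypes. E2f2 had a log2 change of -3.01 ± 0.34, adjusted p = 0.000142 in KO and -3.01 ± 0.34, adjusted p = 0.00015 in WT, and Rpa2 -1.11 ± 0.16, adjusted p = 9.59e-05 in KO and -1.34 ± 0.16, adjusted p = 1.44e-05 in WT. Both kept their call in all 12 omissions in each genotype. Mcm6 was the 1 ring gene to pass the test, with 130.3 and 158 CPM in KO MPEC, against 256 and 231 CPM in KO SLEC on day 7, and 136 and 146 CPM in WT MPEC, against 166 and 338 CPM in WT SLEC on day 7. Its log2 change was -0.76 ± 0.24, adjusted p = 0.0426 in KO and -0.84 ± 0.24, adjusted p = 0.0306 in WT. That call was kept in 3 of 12 omissions in KO and 8 of 12 in WT, where the log2 change was -0.23 (adjusted p = 0.383) without replicate 2 of day 7. The clamp, loader and RPA group had 6 of 6 genes lower in KO and 5 of 6 in WT, the exception being Rfc2 (-0.36 ± 0.24, adjusted p = 0.325). Cyclin E and E2F genes took 3.19% and 3.70% of the members' summed CPM in KO MPEC, against 9.48% and 9.29% in KO SLEC on day 7, and 3.35% and 3.12% in WT MPEC, against 11.7% and 8.44% in WT SLEC on day 7. Without WT SLEC day 7 replicate 1, 37 members were called lower in WT (8.87% of all genes), and without replicate 2, 12 were called lower and 1, Mcm2, higher (7.99% and 6.69%). All 20 WT calls were kept without replicate 1. Without replicate 2 the 8 that lost theirs were Mcm6, Gins1 (-1.84, adjusted p = 0.145), Gins2 (-1.97, 0.0921), Pola2 (-0.22, 0.52), Rfc4 (-0.58, 0.411), Rfc5 (-0.67, 0.174), Tk1 (-0.85, 0.36) and Ccne1 (-0.75, 0.122). Fewest omissions kept the calls of Rrm1 (2 of 12) and Mcm6 in KO and of Tk1 and Chaf1a (3 and 3 of 12) in WT. Omitting WT MPEC replicate 1 or 2 gave 6 and 8, a fit to the 4 WT libraries compared gave 6, and in KO the count of 23 became 9 and 11 when KO MPEC replicate 1 or 2 was omitted and 14 when replicate 1 of KO SLEC on day 7 was.

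The third comparison asks whether KO and WT cells of the same population differed. None of the 39 members was called in any population by edgeR's quasi-likelihood test, none had an unadjusted p under 0.05, and DESeq2 called none (0.0415% of all genes in SLEC on day 7, 1.70% in SLEC on day 14, 0.0346% in MPEC and 0.615% for the mean). The background of edgeR's test was 0.0277% of all genes called in either direction in SLEC on day 7, 0.539% in SLEC on day 14, 0.0138% in MPEC and 0.0830% for the mean over the 3 populations. With so few genes called, a count of 0 says little about these genes. The median log2 change of KO against WT was 0.10 in SLEC on day 7, -0.26 in SLEC on day 14 and 0.03 in MPEC, against 0.00, -0.02 and -0.01 for all genes.

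On day 7 the values of KO cells lay inside those of WT cells. Both KO libraries fell between the 2 WT libraries for 33 of 39 members (84.6%), against 20.8% of all genes. Cdc6, for example, had 36.8 and 31.4 CPM in KO, against 7.07 and 51.4 CPM in WT. The direction of KO against WT on day 7 therefore depends on the WT library: without WT replicate 1 the median log2 change was -0.42 with 38 of 39 changes negative and none called, and without WT replicate 2 it was 1.03 with 38 of 39 positive and 14 called higher (1.06% of all genes). The 14 were Mcm2, Mcm3, Mcm4, Mcm5, Mcm7, Cdc6, Pola1, Prim1, Pole, Lig1, Rrm1, Rrm2, Dut and Chaf1a. With both libraries the log2 changes ran from -0.40 (E2f1) to 0.52 (Prim1), with standard errors of 0.15 to 0.69. Rpa2 was the 1 member whose KO libraries were both below both WT libraries (-0.17 ± 0.15, adjusted p = 1), where 12.2% of all genes were.

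On day 14, 29 of 39 changes in SLEC were negative, and both KO libraries lay below both WT libraries for 18 members and above them for 2, where 25.7% and 21.9% of all genes did so. The lowest changes were those of Mcm10 (-2.26 ± 2.53, adjusted p = 0.798), Cdc45 (-1.998 ± 1.12, adjusted p = 0.514) and Gins1 (-1.89 ± 1.44, adjusted p = 0.659), genes with few counts. Among better measured genes, Pola2 had 42.5 and 42.7 CPM in KO, against 62.5 and 50.7 CPM in WT (-0.41 ± 0.23, adjusted p = 0.488, unadjusted p = 0.0881, the smallest of the 39). Pola1, which encodes the partner subunit of the same polymerase, had 44.3 and 52.5 CPM in KO, against 33.0 and 31.0 CPM in WT (0.59 ± 0.40, adjusted p = 0.627). These 2 partners thus leaned opposite ways, and neither passed the test. The WT libraries of this population carried the B cell, monocyte and neutrophil marker RNA given above, and its part in these values was not tested. The 30 genes of G2 and M phase had a median log2 change of -0.76 with none called. In MPEC the members' changes ran from -1.97 (Cdc6) to 0.60 (Gins2), with 18 negative and 21 positive, and both KO libraries lay below both WT libraries for 4 members (15.9% of all genes).

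The mean KO effect over the 3 populations and the 2 differences of changes were tested too. The mean had a median log2 change of -0.05 over the members (-0.02 for all genes), and Cdc45 had the smallest unadjusted p, 0.0683, with a change of -1.18 ± 0.58, adjusted p = 0.629. Without WT SLEC day 7 replicate 2 the mean effect had a median of 0.23 with 6 members called higher (0.221% of all genes), and without replicate 1 a median of -0.22 with none called. Whether the fall from day 7 to day 14 differed between KO and WT was tested as a difference of changes: the median difference was -0.38 (-0.02 for all genes), none of the 39 was called where 0.00692% of all genes were, and none had an unadjusted p under 0.05. Prim1 was nearest, at -1.37 with an unadjusted p of 0.0982. Without WT SLEC day 7 replicate 2 the median difference was -1.19 and 10 members were called lower (0.477% of all genes), and without replicate 1 it was 0.10 and none was called. The difference of the MPEC against SLEC change between genotypes had a median of 0.26 (0.00 for all genes), with none of 39 called and 0 of all genes; it was 0.20 ± 0.49 for E2f2 and 0.05 ± 0.23 for Rpa2. DESeq2 called none in either difference (0.194% and 0 of all genes).

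**Figure D5:**
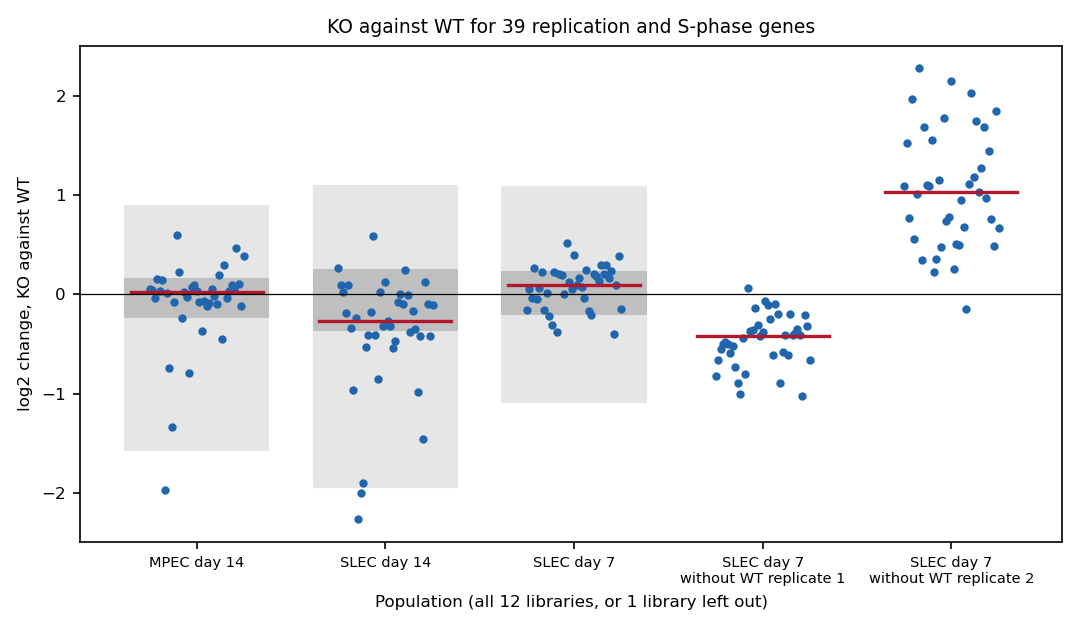
Log2 change of KO against WT (up) for each of the 39 genes (points) in the 3 populations and in SLEC on day 7 with 1 WT library left out, with the median of the 39 in red and, for the first 3, the range holding 50% (dark grey) and 90% (light grey) of all genes tested. In SLEC on day 7 the points centre on 0.10 with all libraries, on -0.42 without WT replicate 1 and on 1.03 without WT replicate 2.

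Set against the promoter letters, the median fall was smaller for members with E2F letters than for members without. In KO SLEC on day 14 against day 7, the 12 members with E2F letters in a window had a median log2 change of -1.26 with 3 called lower, and the 19 members without had -1.96 with 14 called lower. In WT SLEC the medians were -1.05 with 2 called and -1.38 with 10 called. Without WT SLEC day 7 replicate 1 they were -1.46 with 10 called and -1.89 with 19 called, and without replicate 2 they were 0.04 with 1 called and -0.57 with 4 called. The windows printed above, chosen after the values were seen, do not all follow these medians. Mcm3, Mcm5 and Mcm6, with 2 or 3 matches each, had log2 changes of -1.27, -1.91 and -0.53 in KO and were not called between days. Rfc3 with 2 matches was called in KO (-1.56 ± 0.37, adjusted p = 0.0075), with a change between those of Mcm3 and Mcm5. E2f2 with 1 match fell in both genotypes. Cdc6 with 1 match had the largest fall in WT, while Rpa2 without a match had one of the smaller falls there (-0.54). The members with a match include the Mcm3, Mcm5, Mcm6 and Mcm7 genes of the ring, and the difference between these groups was not tested.

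For some members the counts could hold reads of another gene, since the sources used here do not give the strand setting of the counting. In the annotation, Mcm7 overlaps Ap4m1, Cops6 and 3 microRNA genes, Cdc45 overlaps Ufd1, Rfc2 overlaps Lat2, Fen1 overlaps Tmem258 and an antisense gene, Lig1 overlaps Zswim9, Ccne2 overlaps Ints8, Chaf1a overlaps Ubxn6, Rfc4 overlaps Eif4a2 and Rfc5 overlaps Wsb2. Tk1 overlaps Afmid and the gene model Gm20708, and Cdt1 and Gins2 overlap the model Gm20388, which spans several genes. Gins2 also overlaps Gse1, Pole overlaps an antisense gene, and Pola1, Prim2, Pold1, Rrm1 and Chaf1b overlap pseudogenes, small RNA genes or other non-coding models. The values of these members are uncertain to that extent, while Pcna, Cdc6, Mcm10, Rrm2, Tyms, Ccne1, E2f1, E2f2 and Rpa2 overlap no other annotated gene.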

How the data were processed

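RNA of sorted OT-I cells was made into libraries with a SMART-Seq Stranded kit, per the labels' protocols. The authors deposited raw read counts per gene for 12 libraries, which were used as deposited; bcl2fastq, STAR 2.6.1a and build GRCm38 are named in the submitters' processing notes. The sources used here do not give the counting program, its annotation or its strand setting. Of 55421 gene identifiers, 54587 (98.5%) were found in GENCODE vM21, which gave positions, exon lengths and overlapping genes. The counts hold 7603551 to 14026594 reads per library, and this depth limits what can be said of genes with few reads. Without molecular identifiers, reads are not independent molecules.

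Genes with low counts were removed (edgeR's filterByExpr, 14460 genes kept), and libraries were scaled with TMM factors (0.862 to 1.153). A model with a mean for each of the 6 groups was fitted to all 12 libraries with edgeR 4.0.16 in R 4.3.3 (quasi-likelihood test, robust, 6 residual degrees of freedom). The fit was tried on simulated counts with the same dispersion for every gene and library. Those counts held no pair as unlike as the WT SLEC day 7 libraries, so the trial does not cover that case. The 12 comparisons were adjusted with the Benjamini-Hochberg method over all genes, at a threshold of 0.05. Standard errors are the size of the log2 change divided by the square root of F, and CPM uses the TMM-scaled library sizes. Alternatives were DESeq2 1.42.0, other scaling factors, no filter, the replicate number as a block, the compared groups alone, earlier quasi-likelihood dispersions and omission of each library. Where a count of members under an alternative has no share of all genes beside it, it does not set the members apart from all genes.

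The members and lists were chosen with earlier results of these data known. Values in every library are given for the called member with the largest change between days in each role and for a set of well-known members. Members going against the called majority, such as Rfc2 in WT SLEC between days (log2 change 0.02), are not all given in every library. From the other lists, the genes named are among the called ones with the smallest p, at most 4 per list and comparison. Rpa2, Lig1, Mcm6, Cdt1, Dut, Pola1 and Pola2 were added after their values were seen, as were the promoters shown. The samples' groups come from the labels. Promoter sequences are RefSeq's, build GRCm38.p6.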

Additional observations from a re-analysis of the deposited data

How the results depend on the processing

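Of 8853 single-gene changes of the 39 members under the alternatives, 7948 kept their direction and side of the threshold, 408 changed sign with no call either way, 306 lost the call, 186 gained it, and 5 changed sign with a call in one of the fits. Of the 408, 379 had a log2 change under 0.5 in size with all libraries, and 108 arose without a WT SLEC day 7 library. The cause was not tested in any case. The 5 arose without WT SLEC day 7 replicate 2, and the other extreme without replicate 1: Mcm2 in WT MPEC against WT SLEC on day 7 (log2 0.71 and -1.22), Mcm2 (1.09 and -0.82) and Mcm4 (0.77 and -0.55) in KO against WT SLEC on day 7, and Mcm3 (-1.43 and 0.74) and Lig1 (-1.78 and 0.82) in the difference of the day change between genotypes. With 1 library left out, the counts of members called lower ran from 4 to 34 in KO SLEC between days (34 without either WT SLEC day 7 library), 2 to 35 in WT SLEC, 9 to 34 and 6 to 37 for KO and WT MPEC against SLEC on day 7, 0 to 2 for MPEC against SLEC in each genotype and 0 to 10 for the difference of the day change. Counts called higher ran from 0 to 14 for KO against WT SLEC on day 7, 0 to 6 for the mean KO effect, and 0 to 1 for MPEC against SLEC in each genotype and for WT MPEC against SLEC on day 7. The medians ran from -1.66 to -1.35 (KO) and -1.75 to -0.20 (WT) between days, -1.57 to -1.25 (KO) and -1.85 to -0.44 (WT) for MPEC against SLEC on day 7, -0.09 to 0.11 (KO) and -0.40 to -0.11 (WT) for MPEC against SLEC, -0.42 to 1.03 on day 7, -0.27 to -0.17 on day 14 and -0.15 to 0.12 in MPEC for KO against WT, -0.22 to 0.23 for the mean KO effect, and -1.19 to 0.10 and 0.05 to 0.34 for the differences. A library left alone in its group was assumed to vary like the others. The counts in this section stand without the share of all genes called in the same fit. They show how the calls moved and do not set the members apart from all genes.

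With no scaling factor 9 members were called lower in WT SLEC between days, in place of 15; the median of all genes there shifted to 0.22 and that of the members to -1.04, and the summed CPM in WT SLEC on day 14 averaged 1376. Earlier quasi-likelihood dispersions, an alternative chosen after seeing the data, also gave 9. The compared groups alone gave 1, as well as 6 for WT MPEC against SLEC on day 7. In KO SLEC between days, no scaling factor gave 15, earlier dispersions 22 and the compared groups alone 31, in place of 21. For KO MPEC against SLEC on day 7 these fits gave 18, 22 and 31, in place of 23. For WT MPEC against SLEC, 1 member (Pola1) was called higher both without the filter and with the compared groups alone, and without the filter 1 (Cdc45) was called lower in the mean KO effect.

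With the replicate number as a block, 22 and 13 members were called lower in KO and WT SLEC between days, 2 and 2 for MPEC against SLEC, 25 and 21 for MPEC against SLEC on day 7, and none for KO against WT. The numbers do not pair the libraries: over 15 pairs of groups, the correlation of deviations ran from -0.133 to 0.117, with 2 over 0.1.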
